A study of Drosophila melanogaster with 3 samples.

Results

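The regions described here are the intergenic peaks of the fly transcription factor Sox100B that lie more than 1 kb and at most 10 kb from the nearest protein-coding transcription start site (TSS). A peak was taken as a member when its summit, the deposited point of highest signal, lay in no protein-coding gene, met that distance, and lay neither in a non-coding RNA gene nor within 1 kb of the start of one. Of 5683 peaks in the list that passed the irreproducible discovery rate (IDR) procedure, a filter that keeps regions ranked alike in replicates, 567 met the rule, or 9.98%. The rule used the position of the summit alone and no measured value. At the lower limit the nearest member lay 1003 bp from the CG4733 TSS with a signal of 656, and the nearest peak outside it lay 998 bp from a CG43131 TSS with a signal of 838. At the upper limit the last member lay 9834 bp from CG44362 with a signal of 230, and the first peak beyond it lay 10047 bp from CG42749 with a signal of 215.

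The data are chromatin immunoprecipitations with sequencing from whole, mixed-sex Drosophila melanogaster embryos collected 6 to 16 h after laying, from a transgenic line that stably expresses Sox100B with GFP at its C terminus. The 3 samples are biological replicates of a single group, so no condition is compared, and a whole embryo does not show which cells carried the binding. In the labels the antibody field reads Sox100B, whereas the free-text description calls each sample an input control. They were treated as immunoprecipitates, and neither the control experiment that the labels point to nor any untagged line was analysed here.

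Sox100B is the fly member of Sox group E, the group that includes mammalian Sox8, Sox9 and Sox10, and is known for its expression in the embryonic gonad, gut and Malpighian tubules. Sox proteins bind DNA through a high-mobility-group (HMG) box that contacts the minor groove and bends the helix. Short cores of the kind ACAAAG and ACAATG are typical of their sites. Sequence between genes and away from start sites holds many of the enhancers of fly developmental genes, which can act on genes other than the nearest one. The nearest gene is given below as a position and not as a target.

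Some of the strongest members are shown first, because they carry the sequence that the immunoprecipitate enriched most among all members. Each line holds 201 bases of the release 6 (dm6) genome centred on the summit, on the plus strand and read from RefSeq. Capitals mark the Sox core, ACAAAG or ACAATG on either strand.
CG31668, chr2L:2202306-2202506: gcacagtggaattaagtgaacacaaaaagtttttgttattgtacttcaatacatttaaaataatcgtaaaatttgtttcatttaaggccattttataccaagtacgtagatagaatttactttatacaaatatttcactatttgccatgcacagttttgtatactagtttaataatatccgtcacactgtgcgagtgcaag
bin, chr3L:6989236-6989436: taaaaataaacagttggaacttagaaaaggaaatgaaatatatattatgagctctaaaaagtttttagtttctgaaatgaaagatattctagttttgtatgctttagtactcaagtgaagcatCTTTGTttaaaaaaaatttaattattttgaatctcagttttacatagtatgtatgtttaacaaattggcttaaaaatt
chinmo, chr2L:1643349-1643549: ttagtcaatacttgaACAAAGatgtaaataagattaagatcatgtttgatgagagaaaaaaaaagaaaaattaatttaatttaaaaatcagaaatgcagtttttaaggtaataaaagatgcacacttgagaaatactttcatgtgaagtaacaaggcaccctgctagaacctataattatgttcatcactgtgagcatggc
Rh5, chr2L:12006709-12006909: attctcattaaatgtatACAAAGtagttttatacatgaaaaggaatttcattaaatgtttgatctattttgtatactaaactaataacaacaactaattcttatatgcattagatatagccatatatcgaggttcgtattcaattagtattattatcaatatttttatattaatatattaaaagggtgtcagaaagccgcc
chinmo, chr2L:1649392-1649592: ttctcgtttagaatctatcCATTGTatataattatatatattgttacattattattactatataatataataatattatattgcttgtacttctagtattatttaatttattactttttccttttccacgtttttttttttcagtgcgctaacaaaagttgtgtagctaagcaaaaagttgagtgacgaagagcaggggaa
tara, chr3R:16221793-16221993: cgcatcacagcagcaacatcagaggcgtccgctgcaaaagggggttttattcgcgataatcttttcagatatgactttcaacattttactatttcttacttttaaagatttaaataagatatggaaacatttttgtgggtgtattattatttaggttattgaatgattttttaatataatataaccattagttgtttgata

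These windows are rich in A and T: the bin window had 22.4% G and C, the Rh5 window 23.9%, the chinmo windows 28.9% and 25.4%, the CG31668 window 29.4% and the tara window 29.9%. The Sox core stood once in the bin, Rh5 and both chinmo windows and was not found in the CG31668 and tara windows.

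A second set is shown because its shared pattern, CAGTGTA, was the one most concentrated around the summits among 4 patterns followed along the flanks. It was chosen after its values were seen. Each line holds 31 bases around the site nearest to the summit in strong members that carried it, on the strand that reads CAGTGTA, which is in capitals.
slp2, chr2L:3832574-3832604, plus strand: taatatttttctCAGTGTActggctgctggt
CG4218, chr2L:14546973-14547003, minus strand: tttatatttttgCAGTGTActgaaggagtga
CG7560, chr3L:11422398-11422428, minus strand: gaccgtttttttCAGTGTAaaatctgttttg
CG44362, chr3L:11398689-11398719, minus strand: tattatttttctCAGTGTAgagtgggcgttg
foxo, chr3R:14052200-14052230, minus strand: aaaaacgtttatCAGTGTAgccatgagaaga
Gr89a, chr3R:16497588-16497618, minus strand: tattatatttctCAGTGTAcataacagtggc
Ids, chr3L:3382509-3382539, minus strand: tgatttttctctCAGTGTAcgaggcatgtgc
Doc1, chr3L:9034368-9034398, minus strand: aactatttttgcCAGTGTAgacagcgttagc

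The members were peaks of moderate strength. Their median signal, on the peak caller's own scale, was 272, with a range of 173 to 2439. The strongest ranked 43 in the whole list by signal, 8 members stood among the first 100 and 55 among the first 1000, or 5.5%. The deposited −log10 q was at the list's highest value, 3.73, in 206 members, and no member was below 2.42. A region width of 464 bp was shared by 341 members (60.1%), and the others ran from 116 to 1019 bp. Some rows describe one region more than once: 77 members overlapped another member, 12 rows had the same start and end as another row, and the 567 members covered 528 separate loci. Members are thus not independent of one another.

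Among the 20 strongest members, all 20 were overlapped by the strongest regions of every replicate, and the worst rank of any of them in any replicate was 473. The strongest lay 5867 bp downstream of the CG13321 TSS on 2R, with a signal of 2439 and ranks of 44, 44 and 48 in replicates 1, 2 and 3; a further member near the same gene had a signal of 1905. The member 1286 bp upstream of bin, which encodes the forkhead factor biniou of the visceral mesoderm, had a signal of 2176 and ranks of 61, 75 and 63. Both members stood at nearly the same place in every replicate.

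Several of these peaks lay near regulators of transcription. The gene chinmo, which encodes a BTB zinc-finger protein known from neuronal timing and from the somatic cells of the testis, had members 7809 bp and 1766 bp upstream with signals of 1970 and 1797. The first ranked 89, 93 and 72 in the replicates, and the second 79, 109 and 154. The gene tara, which encodes a co-regulator of transcription, had a pair of summits in one region, 3758 and 3497 bp upstream, with signals of 1719 and 1547. The forkhead gene slp2, a segmentation gene, had a member 4319 bp upstream with a signal of 1198 and ranks of 394, 303 and 326. The member of zfh2, a zinc-finger homeobox gene on arm 4, lay 3909 bp upstream with a signal of 1125 and ranks of 473, 344 and 318. The member near RYBP, which encodes a partner of Polycomb-group proteins, had a signal of 1783 at 7619 bp downstream.

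Other strong members lay near genes with other roles. The member 1344 bp upstream of Rh5, a blue-sensitive opsin, had a signal of 1913 and ranks of 108, 96 and 87. That of fz, a receptor of Wnt signalling and planar polarity, lay 1762 bp upstream with a signal of 1333. Those of CycB (the mitotic cyclin B), DNAlig3 (a DNA ligase), by (the tensin of integrin adhesions) and scyl (an inhibitor of TOR signalling) had signals of 1877, 1692, 1148 and 1152. Of the 20, 14 lay upstream of the nearest TSS, 5 had a further peak within 1 kb of that TSS, and 1, that of slp2, held CAGTGTA. Sox100B itself had no member: its peak on 3R lay 406 bp from the TSS, with a signal of 553 and rank 1226.

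The replicates recovered most members. For each replicate, the 5683 strongest of its 30000 deposited regions were taken, as many as the IDR list holds. They overlapped (by 1 bp or more) 80.8% of members in replicate 1, 84.1% in replicate 2 and 79.9% in replicate 3, against 85.0%, 88.5% and 85.3% of all other IDR peaks. Over the whole IDR list the shares were 84.6%, 88% and 84.7%. The mean was 81.6% ± 2.23 for members and 86.3% ± 1.92 for the other peaks (SD, n = 3), and the share of members was lower in all 3 replicates. The mean difference was −4.66 percentage points (SD 0.632; exact two-sided sign-flip permutation p = 0.25). With 3 replicates 0.25 is the smallest p this test can give, so no comparison below could reach 0.05. The IDR list was itself made from these replicates, so the shares describe which replicate ranks lay behind it. Counting instead every replicate region with q under 0.05, the difference was 0.102 points, with shares of members of 94.5%, 99.3% and 96.1% (whole list 94.9%, 99.4% and 95.3%).

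All 3 replicates covered 358 members, or 63.1% (95% exact binomial interval 59.0 to 67.1%), where the whole list stood at 71%. Another 117 members were covered in 2 replicates, 80 in 1 and 12 in none. Strength separated them: of the 189 strongest members 98.4% were covered in all 3, of the middle 189 77.2% and of the weakest 189 13.8%. A region with q under 0.05 overlapped 511 members in all 3 replicates, or 90.1%, against 90.3% over the list. Among members covered in both lists of a pair, Spearman's rank correlation of replicate ranks was 0.809 (replicates 1 and 2, n = 563), 0.759 (1 and 3, n = 564) and 0.797 (2 and 3, n = 564). Over all IDR peaks the values were 0.860, 0.834 and 0.863; these points share libraries and the selection by IDR. Depth in reads is unknown for every list, so no interval for a single signal can be given.

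**Figure D1:**
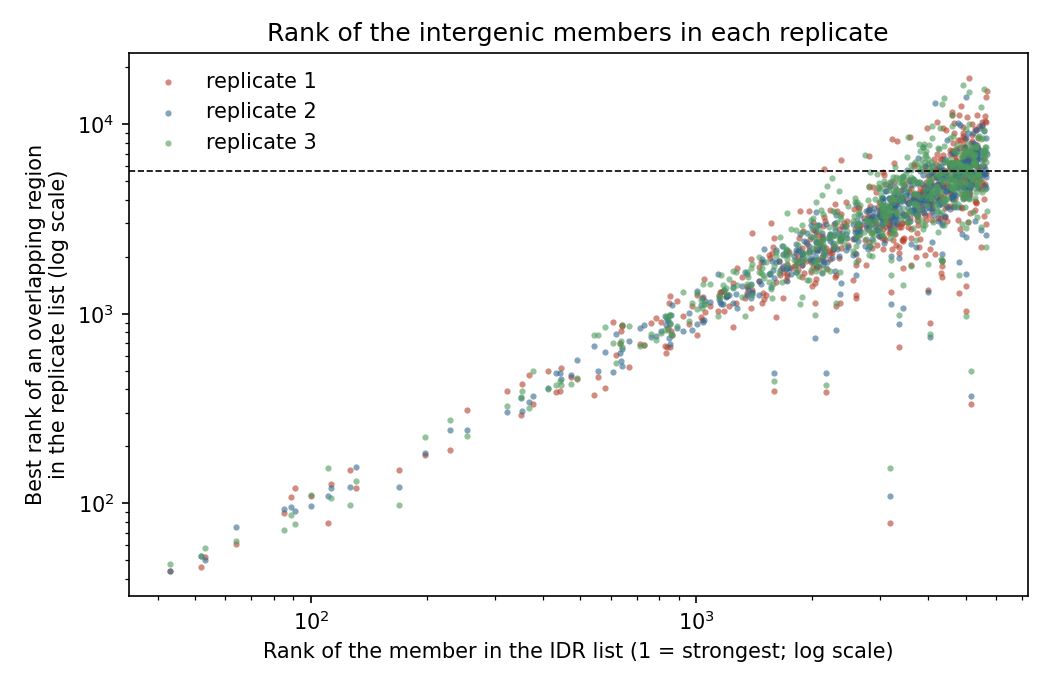
Rank of each intergenic member in the IDR list (x axis, log scale, 1 is the strongest) against the best rank of an overlapping region in the list of replicate 1, 2 or 3 (y axis, log scale, 1 colour per replicate). The dashed line is rank 5683, the limit for a replicate's strongest regions: the 20 strongest members all lie far under it, and most points above it belong to the weakest 189 members.

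The members were weaker than the intronic peaks at the same distance. When the strongest regions of each replicate were classed by their own summits, 508, 509 and 492 fell in the intergenic class (503 ± 9.54, SD, n = 3). Their median signal percentile within the replicate was 43.9, 40.8 and 39.2, against 48.2, 46.8 and 46.1 for intronic regions 1 to 10 kb from a TSS. The difference was −5.69 percentile points (SD 1.33, lower in 3 of 3 replicates, exact sign-flip p = 0.25). In the IDR list the median signal was 272 for the members, 288 for 1549 intronic peaks, 352 for 2477 peaks within 1 kb of a TSS and 270 for 642 peaks over 10 kb away.

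The members were less dense than IDR peaks of all classes together. Sequence meeting the rule spans 17.2 Mb, or 12.9% of the 6 chromosome arms, and held 32.9 members per Mb. The arms as a whole held 42.4 IDR peaks per Mb. That value includes the 2477 peaks within 1 kb of a TSS, a location the rule leaves out. Density over the arms without promoter sequence was not computed. The median distance to the nearest TSS was 3620 bp. Density was 34.9 members per Mb upstream of the nearest TSS and 29.6 per Mb downstream of it. In the replicates it was 31.0, 32.0 and 30.6 per Mb upstream, against 27.0, 25.5 and 25.2 per Mb downstream. The difference was 5.27 per Mb (SD 1.29, higher upstream in 3 of 3, exact sign-flip p = 0.25). It was 0.899 per Mb among regions above the median signal and 2.24 per Mb when the members 1 to 2 kb away were left out. Above the median each list held fewer regions on the same sequence. A difference per Mb shrinks with that count, so 0.899 and 5.27 per Mb are not directly comparable.

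The upstream side thinned with distance. Density was 44.2 per Mb at 1 to 2 kb upstream, 35.2 at 2 to 5 kb and 28.8 at 5 to 10 kb. Downstream it was 33.2, 32.1 and 26.4 per Mb over the same distances, where the 1 to 2 kb bin held 28 members and its replicates spread from 20.2 to 33.2 per Mb. The upstream difference between the nearest and the farthest bin was 17.8 per Mb over the replicates (SD 1.97, exact sign-flip p = 0.25). Weak regions, defined as the 3195 regions of the pooled list that met the same location rule and lay over 500 bp from every IDR peak, had 212 and 177 per Mb in these bins. Over all distances weak regions were also denser upstream of the nearest TSS, at 194 per Mb against 172 per Mb downstream.

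Density also differed with the orientation of the flanking genes, a comparison that shares sequence with that of side. A divergent gap is upstream of the genes at both its edges. Such gaps held 209 members on 4.71 Mb, and the whole upstream side held 374 on 10.7 Mb. Side and orientation were not separated, so the upstream and divergent differences are not independent results. Gaps between divergent genes, which start on both edges, held 44.3 members per Mb, gaps between tandem genes 28.1 and gaps between convergent genes 30.5. In the replicates the divergent gaps had 38.7 ± 0.857 per Mb and the tandem gaps 25.1 ± 0.394 (SD, n = 3), and the difference of 13.6 per Mb (SD 0.656) had the same sign in all 3 (exact sign-flip p = 0.25). Weak regions were at 210 and 179 per Mb in divergent and tandem gaps. One member (0.176%) lay in an annotated transposable element, where 3.04% of weak regions and 8.53% of the sequence lay. How far reads could be placed in such repeats was not tested.

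Arm 3L held 192 members, or 33.9% of them, on 21.6% of the sequence that met the rule. That is 51.7 members per Mb, against 27.7 per Mb over the other 5 arms. The replicates had 46.0, 47.1 and 45.2 per Mb on 3L, and their mean was 46.1 ± 0.945 on 3L against 24.5 ± 0.503 elsewhere (SD, n = 3). The difference of 21.6 per Mb (SD 0.709) held in 3 of 3 replicates (exact sign-flip p = 0.25). Arm 3L was singled out as the arm with the most members per Mb in these same lists. Like the contrasts of distance bins and of orientation, this contrast was not among the planned comparisons. Weak regions were also denser on 3L, at 230 per Mb against 173 per Mb elsewhere. Of the other classes of peak, 22.9% of intronic and 21.0% of promoter peaks lay on 3L, which is 21.0% of the arm sequence; the difference between classes was not tested. The X had the fewest members per Mb, 24.3, with 24.7, 34.6, 29.5 and 30.4 per Mb on 2R, 4, 2L and 3R, where arm 4 had 4 members.

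**Figure D2:**
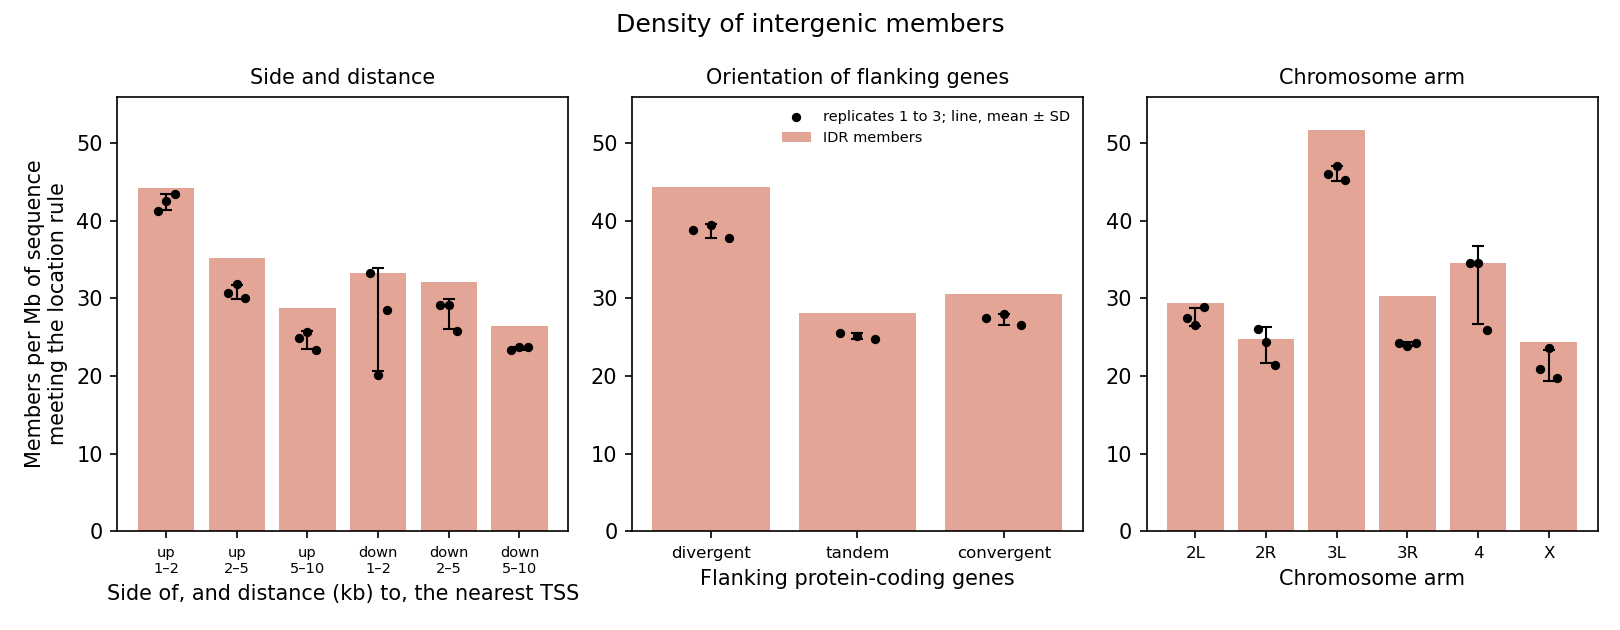
Members per Mb of sequence meeting the location rule (y axes) by side and distance of the nearest TSS in kb, by orientation of the flanking genes and by chromosome arm (x axes). Bars are the IDR members, points the replicates and lines their mean ± SD (n = 3): the replicate points of arm 3L, from 45.2 to 47.1, lie above those of every other arm, and divergent gaps lie above tandem and convergent gaps.

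Many members lay in runs. When members with summits at most 10 kb apart were joined, 240 of the 349 resulting runs had a single member, and 9 runs of 5 or more held 72 members. The largest spanned 37.9 kb at chr3R:21825335-21863252 with 14 members, among the gustatory receptor genes Gr93a, Gr93b and Gr93d, the carbohydrate-binding protein gene glec, the scaffold gene CASK and lsn. The replicates had 12, 10 and 11 members of their own there. Its signals ran from 177 to 765, with a median of 244, so this run was made of many weak and moderate peaks. Its strongest member lay 2535 bp upstream of Gr93d and ranked 681, 876 and 686 in the replicates.

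The next run covered 42.2 kb at chr3L:11389344-11431502 with 12 members and had 11, 9 and 11 in the replicates. It lay around CG7560, CG44362 and CG11726, whose products have no role given here. CG7560 was the nearest gene of 6 members, the most of any gene, with signals from 207 to 1455; 5 of them lay upstream at 2652 to 9583 bp. The third run spanned 30.7 kb at chr3L:11298549-11329217 with 10 members around CG6168, CG7573 and Dyro, and 9, 7 and 8 in the replicates. A run of 7 at chr2L:1422895-1445233 lay beside robo2, a receptor for Slit in axon guidance, and one of 6 at chr3L:9023873-9034465 lay between Doc1 and Doc2, T-box genes of the heart and amnioserosa. The replicates had 5, 5 and 5 members in the robo2 run and 4, 4 and 4 in the Doc run.

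**Figure D3:**
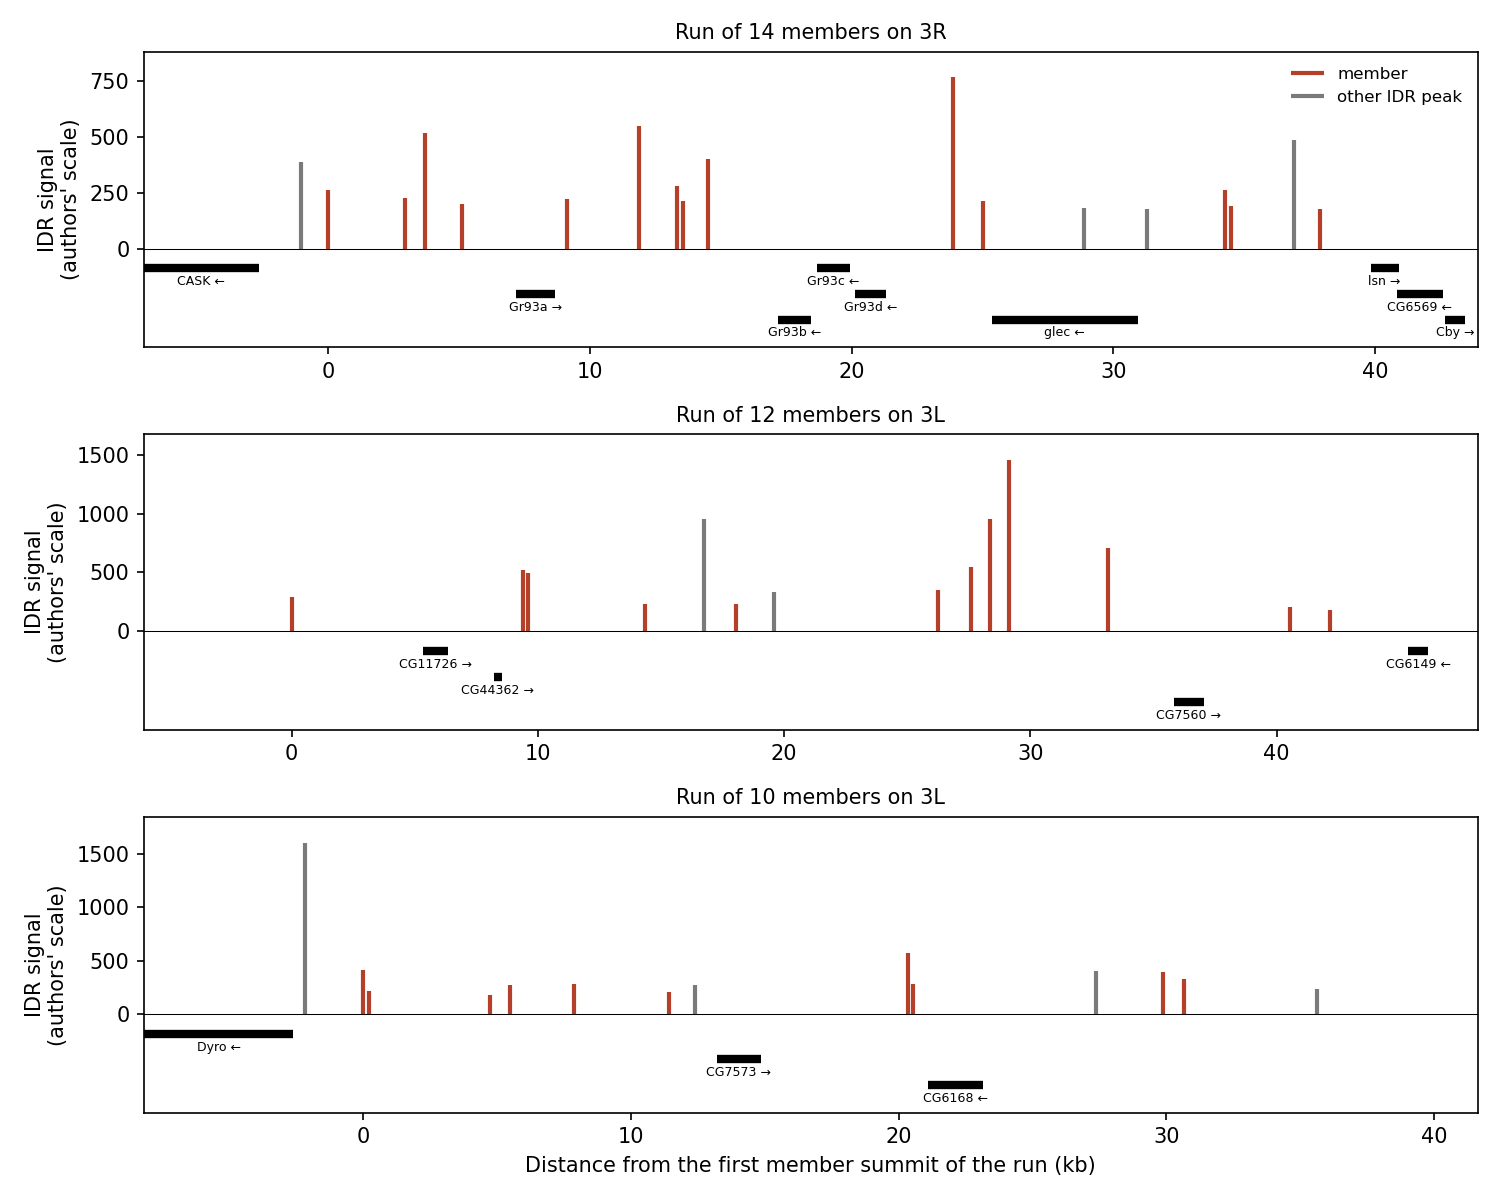
IDR signal on the authors' scale (y axes) against distance in kb from the first member of the run (x axes) for the 3 largest runs of intergenic members, with protein-coding genes as black bars and their direction as arrows. Red lines are members and grey lines other IDR peaks: the run of 14 on 3R stays at or under 765, and the tallest member of the run of 12 on 3L reaches 1455.

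The members lay nearest to 393 protein-coding genes, which is 2.82% of 13945, or 7.93% of the 4954 genes that are the nearest gene of any sequence meeting the rule. One member was found for 283 genes, 2 for 68, 3 for 26, 4 for 11, 5 for 4 and 6 for 1. With 5 members each stood scyl, CG4218, Gr93a and CG6163, and chinmo had 4, all upstream and all covered in 3 of 3 replicates. The chinmo members 1766 and 1565 bp upstream were summits of a single region, with the same start and end. CG6168, Ids (an iduronate sulfatase gene), CG44362 and CG13898 also had 4.

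Members were set beside promoter peaks at the nearest gene. The nearest TSS had a further IDR summit within 1 kb for 124 members, or 21.9%, where 18.5% of all 19252 annotated protein-coding TSS have one. For intronic peaks at the same distance the share was 38.2%, and for peaks over 10 kb away 24.0%. In the replicates it was 23.8%, 21.4% and 23.2% for the intergenic class and 38.9%, 35.9% and 39.3% for the intronic class. The difference of −15.2 points (SD 0.824) had the same sign in 3 of 3 replicates (exact sign-flip p = 0.25). It was −7.18 points among regions above the median signal, where promoter summits under the median were not counted either. All 5 scyl members lay near a TSS with a further IDR summit within 1 kb, and none of the 4 chinmo, 6 CG7560 or 5 Gr93a members did. The next IDR summit of any class was a median of 2670 bp away for members, against 2129 bp for intronic peaks and 4044 bp for peaks over 10 kb from a TSS.

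By lists of genes, members were frequent beside homeobox genes outside the Hox cluster. Of 58 such genes with sequence meeting the rule, 16 (27.6%) were the nearest gene of a member, with 19 members and 52.9 per Mb, against 7.93% of all genes and 32.9 per Mb. The replicates had 15, 17 and 17 of them (45.5 ± 3.21 per Mb, SD, n = 3). The strongest were at zfh2, at C15 (signal 442, 6320 bp upstream) and at Optix (signal 383, 4207 bp downstream), a Six-family gene of the eye and head. No member lay nearest to the 8 Hox genes, 21 bHLH genes, 10 nuclear receptor genes and 10 neuronal genes with such sequence. Their sequence was 0.0351, 0.0427, 0.0526 and 0.0273 Mb, at which 32.9 per Mb gives few members.

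Developmental genes of the mesoderm and gonad also had members. Of 25 muscle and heart genes 5 had 9 members (86.3 per Mb, replicates 83.1 ± 5.54): 3 each lay at Doc2 and Doc1, with highest signals of 614 and 494. The member of Act57B, a muscle actin gene, had a signal of 479. Of 14 somatic gonad genes 3 had 6 members (102 per Mb, replicates 107 ± 9.78). They were chinmo with 4, zfh1, a zinc-finger homeobox gene of mesoderm and gonad, with a signal of 310, and the GATA factor gene srp with 292. A pair of the chinmo summits lay in a single region, so the density of this list counts that region more than once. The group B Sox genes D (Dichaete) and SoxN had 2 members and 1, with highest signals of 522 and 287.

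The signalling lists held few genes with sequence meeting the rule. Members lay nearest to 2 of 10 such genes in the Wnt list, 1 of 2 in the Hedgehog list and 2 of 8 in the EGFR list. The BMP list had 2 of 6, the Notch list 2 of 8 and the cell death list 2 of 5, against 7.93% of all genes. Per Mb of such sequence the Wnt and EGFR lists had 30.7 and 36.4 members, near the 32.9 over all sequence meeting the rule. The Hedgehog, BMP, Notch and cell death lists had 68.5, 195, 58.2 and 59.3 per Mb, each from at most 3 members. In the Wnt list the genes with members were fz and fz4 (signal 243), and in the Hedgehog list ptc, the Hedgehog receptor gene (618, 5237 bp upstream). In the EGFR list they were aop, the ETS repressor Yan (820, 1520 bp upstream), and ths, an FGF ligand (261). In the BMP list they were the ligand gene dpp (280) and the inhibitory Smad gene Dad (183). The Dad member was covered by no replicate's strongest regions, with ranks of 6460, 7024 and 7616. In the Notch list E(spl)malpha-BFM, a Bearded-family gene, had 834 and Tom 206. Of the cell death genes hid, an antagonist of apoptosis inhibitors, had 630 at 7345 bp upstream, and rpr, with the same role, had 2 members of at most 291.

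The remaining lists held ribosomal protein, chemoreceptor, cuticle and further tissue genes. Of 30 cytosolic ribosomal protein genes with such sequence 1 had a member, RpS23, with a signal of 182 (9.35 per Mb). Odorant and gustatory receptor genes had 14 members at 5 of 68 genes (47.4 per Mb), and 5 of these members lay at Gr93a. Cuticular protein genes of the Cpr family had 5 members at 4 of 45 genes, led by Cpr65Eb with 453. Of the segmentation genes 3 of 14 had a member (slp2, slp1 and opa, with 1198, 488 and 198), and of the midgut genes 3 of 12 (srp, dpp and esg). The tracheal list had vvl (305) and esg (203) of 10 genes, the glial list ttk (224) of 6, and the hindgut and tubule list hth (189) of 11. In members per Mb the segmentation and midgut lists stood at 23.9 and 48.7. The tracheal, glial, and hindgut and tubule lists stood at 30.0, 77.8 and 13.1. Mitochondrial ribosomal protein genes had mRpL21 (277) of 11, and the ecdysone list had Imp (179) of 5. The JAK-STAT, epidermal and germ line lists, with 3, 7 and 4 such genes, had none. The lists contain few genes, several genes stand in more than 1 list, and no list was tested.

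The members were rich in A and T. Within 100 bp of the summit they averaged 33.0% G and C, against 33.6% in intronic peaks, 35.5% in weak regions and 40.8% in 85698 windows tiled over all sequence that meets the rule. The replicates had 33.1%, 33.3% and 33.5% (33.3 ± 0.197, SD, n = 3), a difference of −7.53 points from the tiled windows in 3 of 3 replicates (exact sign-flip p = 0.25). It was −9.66 points within 50 bp and −3.46 within 200 bp, so the low G and C content was concentrated near the summit. Mean content was 32.0% in the strongest 189 members, 33.0% in the middle and 33.9% in the weakest.

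No excess of the Sox core was detected at the members. It stood within 100 bp of the summit in 137 members, or 24.2% (95% exact interval 20.7 to 27.9%), with 24.9% over the whole IDR list. The share was 25.4%, 23.2% and 24.2% in the replicates (24.3% ± 1.11, SD, n = 3), against 24.9% in weak regions. The difference was −0.597 points over the replicates (exact sign-flip p = 0.5) and its sign changed with the window. Tiled windows, which hold more G and C, had 26.2% and intronic peaks 27.5%. For members minus weak regions the 95% Newcombe interval was −4.36 to 3.28 points, which covers the counting of regions only. A core with its letters shuffled, AACAAG or AACATG, stood in 21.9% of members and 22.3% of weak regions (23.1% over the list). Around the members' summits the core had 14.3 sites per 100-bp bin and 100 regions within 100 bp, and 15.1 at 500 to 1000 bp. It stood in 22.2% of the strongest 189 members, 23.3% of the middle and 27.0% of the weakest. Among the 20 strongest it was more common than these shares. There it stood in both chinmo members and in those near CG33453, bin, Rh5, CycB, CG7560 and slp2. It also stood in the CG13321 member with a signal of 2439, and in none of the others. So small a set, read after the fact, was not tested. A match of letters is a description and not a binding site, and a window with no match says nothing about the protein.

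CAGTGTA, by contrast, was concentrated around the summits. On either strand it stood within 100 bp in 57 members, or 10.1% (95% exact interval 7.70 to 12.8%), with 6.51% over the IDR list, 4.29% in weak regions and 1.96% in tiled windows. The replicates had 9.84%, 11.0% and 9.55% (10.1 ± 0.767, SD, n = 3). Within 100 bp of the members' summits it had 6.08 sites per 100-bp bin and 100 regions, against 1.06 at 500 to 1000 bp, a ratio of 5.75 (replicates 5.97 ± 0.725). The rise was broad: the bins at 100 to 200 bp before and after the summit had 3.70 and 4.06. The printed sites lay 7 to 96 bp from their summits. The ratio was 2.73 in weak regions and 0.946 for the Sox core, 1.18 for GATA and 1.62 for the homeodomain core TAATTA in members. The windows of the 57 members held 64 sites, each at a different position, and 7 of these members held 2.

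The pattern was found at intergenic and intronic peaks more than at promoters. It stood in 10.1% of members, 7.30% of intronic peaks, 9.50% of peaks over 10 kb away and 4.24% of promoter peaks. Members minus intronic peaks came to 2.76 points in the IDR list (95% Newcombe interval 0.138 to 5.76) and to 3.63, 3.46 and 2.62 points in the replicates. Since the pattern was chosen after these lists were scanned, the values are a description, with no test. It extends AGTGTA, one of 1531 hexamers present in at least 20 members, which stood in 20.6% of members and 7.56% of tiled windows. CTAGCA had the highest ratio of members to weak regions, at 8.82% against 4.19%. CCCACA was lowest among the 1531, at 4.23% against 9.83%. Hexamers in fewer than 20 members were left out, so that place depends on the limit.

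The printed sites show letters that the choice did not fix. Bases beside 56 member sites were T at 4 positions before the pattern in 57.1%, T at 3 before it in 60.7% and C at 2 before it in 58.9%. In 1637 sites of the tiled windows the shares were 38.3%, 43.3% and 27.5%. On the other side no base passed 33.9% over the 4 positions. Members with the pattern did not stand apart in strength: their median signal was 275, against 271 for members without it, and all 3 replicates covered 64.9% against 62.9%. Their G and C content was 33.5% against 32.9%. Both the pattern and the Sox core stood in 15 members, and neither in 388.

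**Figure D4:**
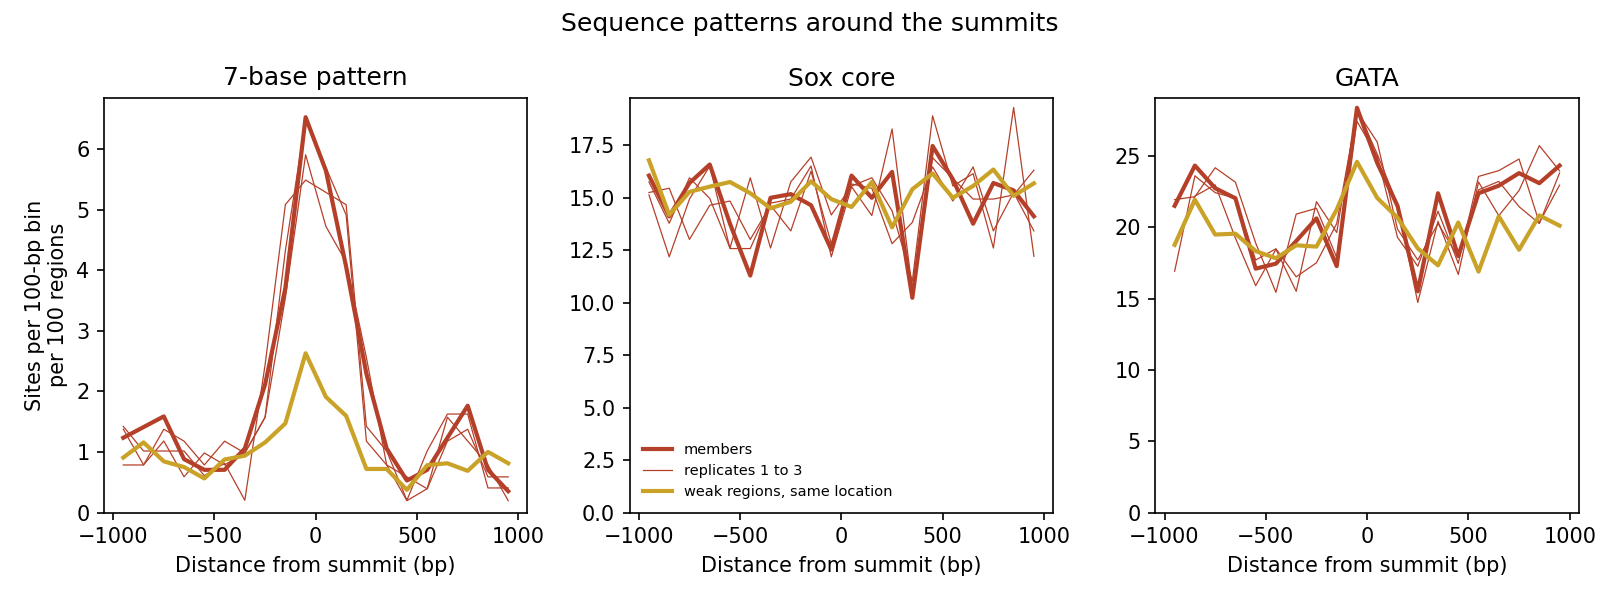
Sites of CAGTGTA (the 7-base pattern), of the Sox core and of GATA per 100-bp bin and 100 regions (y axes) by distance from the summit in bp (x axes). The thick red line is the members, thin red lines the replicates and the yellow line the weak regions: the 7-base pattern reaches 6.53 in the bin before the summit of members and averages 1.06 beyond 500 bp, while the Sox core has no such rise.

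Of the other patterns, the most common was that of GATA factors. It was searched on either strand as AGATAA and as TGATAA, and also in the forms AGATAG and TGATAG. It stood in 225 members, or 39.7%, with 42.1% over the IDR list, 44.2% in intronic peaks, 35.1% in weak regions and 29.4% in tiled windows. Members exceeded weak regions by 6.45, 5.19 and 5.36 points in the replicates (mean 5.67, SD 0.683, exact sign-flip p = 0.25). The excess was not confined to the summit. Within 100 bp GATA had 26.5 sites per 100-bp bin and 100 regions in members and 23.3 in weak regions. At 500 to 1000 bp it had 22.4 and 19.5. The ratio of near to far was 1.18 in members and 1.20 in weak regions. The homeodomain core TAATTA stood in 22.2% of members, 20.7% of the list, 19.0% of weak regions and 15.1% of tiled windows, and exceeded weak regions by 4.33 points over the replicates (SD 0.475, exact sign-flip p = 0.25). Both patterns are rich in A and T, as are the members beside the tiled windows, and the part of base composition was not tested.

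Some patterns were rarer at members than at intronic peaks. The forkhead core TGTTTAC stood in 4.23% of members and 8.72% of intronic peaks (7.3% over the list), a difference of −5.02 points in the replicates (SD 0.369, lower in 3 of 3, exact sign-flip p = 0.25). Its 95% Newcombe interval in the IDR list was −6.52 to −2.10 points, which counts overlapping members as independent and is no test. Weak regions at the same location had 4.57% and tiled windows 3.76%. GAGAG stood in 16.9% of members, 20.1% of intronic peaks and 19.2% of the list. The promoter element DRE, TATCGATA, stood in 2 members (0.353%) and 3.71% of promoter peaks (1.79% over the list).

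The remaining patterns were at low shares. TTCNNNGAA, the STAT pattern, stood in 3.88% of members, 6.33% of intronic peaks and 6.38% of weak regions (5.77% over the list), and was lower than in weak regions in 3 of 3 replicates (mean −2.41 points, SD 0.315, exact sign-flip p = 0.25). CAGCTG stood in 4.23% of members (5.98% over the list), CACACACA in 1.76% (2.87%), and a run of 8 A in 16.4% (17.7%). CACTTGA, the Tinman pattern, stood in 3.88% (3.5%), and the Su(H) pattern, GTGGGAA or GTGAGAA, also in 3.88% (4.14%). The Hox-Exd pattern, TGATTAAT, TGATTGAT or TGATTTAT, stood in 6.53% (5.7%). The AP-1 pattern, TGACTCA or TGAGTCA, stood in 1.06% (1.55%). The grainyhead pattern, AACCGGTT, AACAGGTT or AACTGGTT, stood in 1.23% (1.94%), and the Zelda pattern, CAGGTAG, in 0.529% (0.721%). All were searched on both strands, and sites of different patterns may overlap. Besides CAGTGTA, each of the 17 patterns was compared with weak regions and with intronic peaks, and no adjusted p can be under 0.25.

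**Figure D5:**
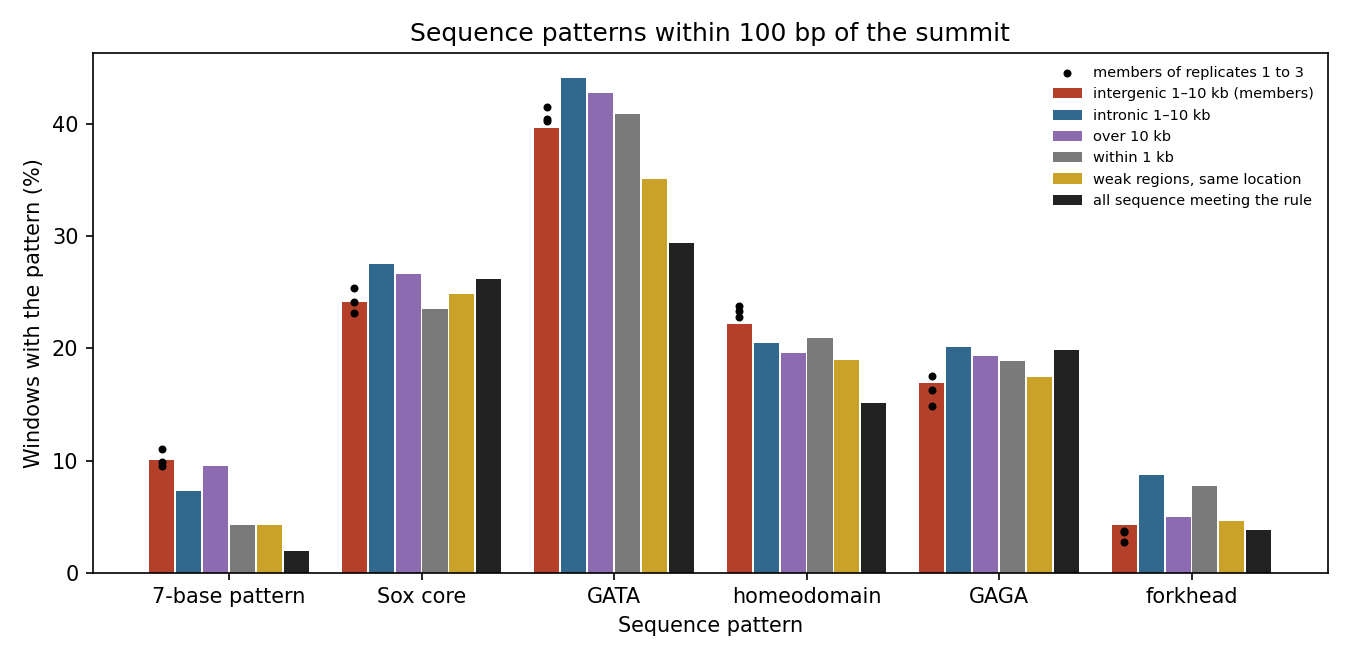
Share of windows of 201 bp around the summit (y axis, percent) that hold each sequence pattern (x axis) in intergenic members, in intronic, far and promoter peaks, in weak regions of the same location and in all sequence that meets the rule. Points are the members of each replicate: for CAGTGTA, the 7-base pattern, they run from 9.55 to 11.0%, above the 4.29% of weak regions, whereas for the Sox core they run from 23.2 to 25.4%, around the 24.9% of weak regions.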

How the data were processed

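Sox100B-GFP ChIP-seq of 3 embryo replicates was analysed from 5 region lists on dm6: 30000 regions for each replicate and for the replicates pooled, holding peaks and background, and the IDR list, per the deposited file descriptions. The signal value, the −log10 q-value and the summit offset were used as the authors deposited them; the signal is the caller's own scale and served to rank regions within a list. The sources used here do not state the aligner, the caller or the IDR threshold, and reads per region are unknown, so intervals cover counting of regions only. All intervals treat rows as independent, which overlapping members are not, and none serves as a test. Start sites and genes are from Ensembl release 115 and sequence from RefSeq release 6. Windows of 201 bp, densities per Mb of sequence meeting the rule, exact intervals and exact sign-flip permutation tests over replicates were computed with Python 3.11.15, NumPy 2.4.6, SciPy 1.17.1 and pandas 2.3.3, and checked on simulated summits. The members and gene lists were chosen with earlier results of these data known. Sequences from arm 2R are not shown. Named genes were those nearest the 20 strongest members, the 10 with most members and up to 3 per list.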

Additional observations from a re-analysis of the deposited data

How the results depend on the processing

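Of 67 alternative values, 4 changed sign. No alternative could pass the 0.05 threshold, since the smallest possible p is 0.25 (0.5 with a replicate left out), so the threshold says nothing about stability. Sizes moved where the sign did not: upstream minus downstream was 0.899 per Mb, and promoter peaks −7.18 points, above the median signal. Both came from shorter lists, so their sizes are not directly comparable with the main values. The number of members, 567, was 219 above the list's median signal, and 384 to 405 members were covered by the strongest regions of both remaining replicates when a replicate was left out. Sharing, members minus other peaks, was 0.102 points with replicate regions of q under 0.05, and −4.86 to −4.30 without a replicate. The Sox core difference from weak regions was 0.00115 points with those regions, 1.09 with 50 bp and 0.0841 with 200 bp on each side, and −1.17 to −0.0610 without a replicate. The cause was not tested. Without a replicate, the other results were −6.41 to −5.11 percentile points of signal, 4.66 to 5.94 per Mb upstream minus downstream, −7.63 to −7.43 points of G and C and −15.6 to −14.8 points of promoter peaks. No paired analysis was possible because there is no second group of samples to pair by replicate number; the differences here were each taken within a replicate. The unknown depth, 3 replicates and missing untagged control limit every statement, and an overlap with a called region gives no amount of binding.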
